A study of Mus musculus with 14 samples.

Results

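The Brg1 experiment compared whole eyes of newborn mice with a conditional knockout (cKO) of Brg1 with eyes of wildtype mice. It held 6 of the 14 arrays of the series, chosen by their labels: the 3 arrays titled Brg1_cKO1 to Brg1_cKO3 and the 3 arrays titled wt1 to wt3, all described across 12393 genes. Both groups were eyeballs at postnatal day 1 (P1) from mice of a mixed background strain, and all samples were made from 50 ng of total RNA, amplified and labelled with biotin. The other 8 arrays compared a knockout of Snf2h, a chromatin remodeller of another family, with its own wildtype eyes on a C57BL/6 background, 4 arrays each. The labels used here name neither the Cre driver nor the cells in which Brg1 was deleted, and all 3 knockout samples carry the same genotype label, Brg1_cKO1. They do not say from which animals or pools of eyes the samples came, so p-values measure only the spread between these samples, which may be technical. Only knockout replicate 1 can be told, by its sex-linked genes given below, to come from another animal or pool.

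Brg1, encoded by Smarca4, is a catalytic ATPase of the SWI/SNF (BAF) complexes, which use ATP to move or remove nucleosomes at promoters and enhancers. The lens and the corneal epithelium both arise from head surface ectoderm. Lens fibre cells fill with crystallins, build a cytoskeleton of beaded filaments and gap junctions, and then degrade their nuclei and other organelles, while the corneal epithelium becomes a stratified epithelium marked by its own keratins. A stratified epithelium that is wounded or inflamed switches on another set of keratins and cornified envelope proteins, and releases interleukin-1, chemokines and metalloproteinases.

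Values are log2 of the intensity of 1 probe set per gene, so that a difference of 1 is a 2-fold change, and changes are knockout minus wildtype. The samples carried the marker transcripts of the labelled tissue. In the wildtype arrays Cryaa, the lens alpha-A crystallin, read 13.14, 13.21 and 13.07, the corneal keratin Krt12 read 9.29, 9.50 and 9.26, the photoreceptor factor Crx read 9.65, 9.79 and 9.65, and the pigment cell enzyme Dct read 10.71, 10.91 and 10.64. On the linear scale the arrays had median intensities of 103 to 114, and the 3' minus 5' difference of Gapdh, a sign of RNA quality, read 0.74, 0.74 and 0.68 in wildtype and 0.66, 0.96 and 0.63 in knockout arrays. That of Actb read 1.12, 1.02 and 1.0 against 1.39, 1.37 and 1.05, so that knockout replicates 1 and 2 lay above every wildtype array. The part of this sign of RNA quality in the results was not tested. Brg1 cKO replicate 1 stood apart in its sex-linked genes: Xist, the RNA of the inactive X chromosome, read 3.71 there and 11.01 to 11.77 in the other 5 arrays, and the Y-linked Eif2s3y read 10.58 there and 1.66 to 2.22 elsewhere. Knockout replicate 1 thus reads as male and the other 5 arrays as female, so it came from another animal or pool than the other knockout samples. The part of this difference in sex in other results was not tested. Numbers of calls without knockout replicate 1 are given with the gene lists whose number changed.

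The targeted gene did not separate the groups on the probe set that represents it. Smarca4 has 2 probe sets on the array. On the 1 used for the gene the wildtype arrays read 9.16, 8.91 and 8.91 and the knockout arrays 9.41, 8.71 and 8.99, a change of 0.05 ± 0.22 (SE, n = 3 against 3, limma adjusted p = 0.972 over all probe sets), which was -0.14 without Brg1 cKO replicate 1. On the other the wildtype arrays read 8.47, 7.75 and 8.07, the knockout replicates 1 and 2 read 7.08 and 7.06, and replicate 3 read 7.92, within the wildtype range, for a change of -0.74 ± 0.30 (adjusted p = 0.579). Where the deleted exons lie relative to these probe sets is not given in the sources used here, and in whole eyes cells that kept the gene are measured too, so neither probe set checks the deletion. Of 25 measured genes for SWI/SNF subunits, 0 passed the test, with changes between -0.34 and 0.17.

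Across all genes, 135 of 12393 (1.09%) passed an adjusted p of 0.05, 76 of them higher (0.613%) and 59 lower (0.476%) in the knockout eyes. The median change of all genes was 0.02. At an unadjusted p under 0.05 stood 9.21% of genes, 5.45% higher and 3.77% lower. For all 135 the 3 knockout arrays lay beyond all 3 wildtype arrays, which was so for 14.5% of all genes. The rises were large and mostly began from dim signals: their median change was 2.98, 58 exceeded 4-fold and 37 exceeded 8-fold, and 74 of 76 had a wildtype mean below 7.38, the median level of all genes. The falls had a median of -1.92, with 27 past 4-fold and 7 past 8-fold. Counts depended on single arrays. Without wildtype replicate 1, 2 or 3 there were 20, 18 and 39 rises and 10, 8 and 19 falls. Without knockout replicate 1, 2 or 3 there were 120, 98 and 29 rises and 40, 117 and 16 falls. Of the 135 genes, 23 were called in every one of these 6 fits, among them Krt16, Il1b, Mmp3, Slfn4, Sprr1a and Sprr1b among the rises, and Krt12, Ehf and Myo7b among the falls.

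**Figure D1:**
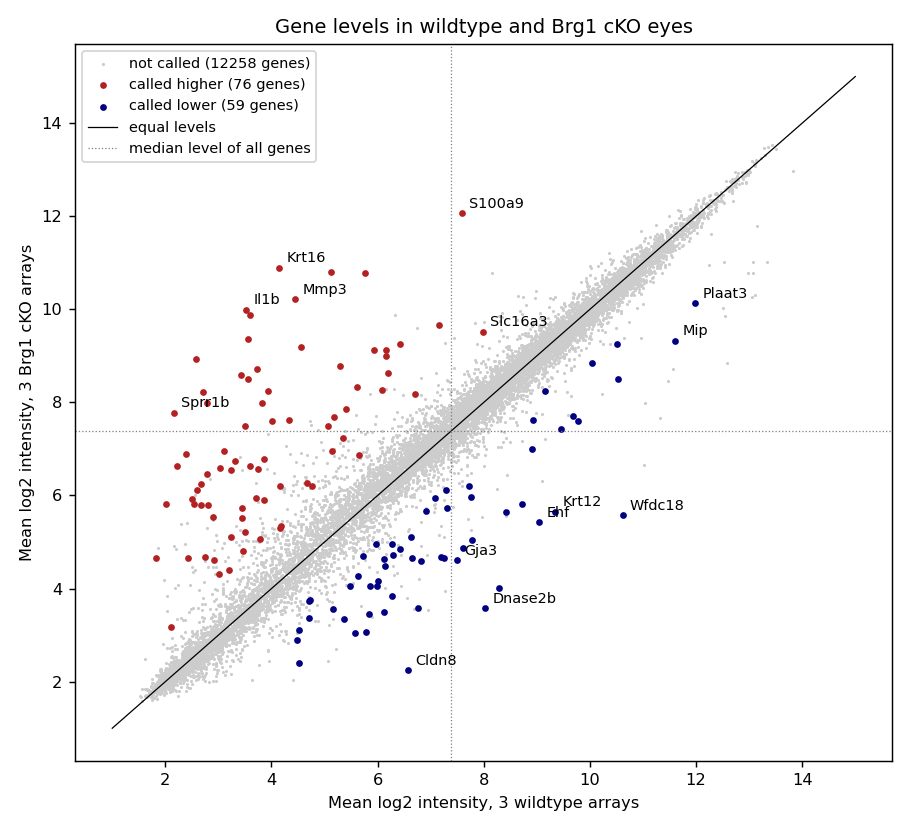
Mean log2 intensity of each of 12393 genes in the 3 wildtype arrays (horizontal) and the 3 Brg1 cKO arrays (vertical), with 76 genes called higher in red, 59 called lower in blue and the median level of all genes dotted. Called rises lie mostly to the left of the median wildtype level, with S100a9 and Slc16a3 the 2 whose means were above it in both groups, while 10 called falls, among them Mip and Plaat3, lie above it in both groups.

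Most of the 15 largest rises were wound keratins and cornified envelope proteins, interleukin-1 and chemokines, or genes of innate immune cells; Mmp3, a metalloproteinase, and Serpina3n, a serine protease inhibitor, were also among them. The bases just before their start sites are shown here because several of them share a short motif, TGANTCA, where N is any base. It is a loose form of the site of the AP-1 factors (Fos and Jun family), which has C or G at that place. RefSeq promoter windows from 250 bases before to 50 bases after the start were searched on both strands for TGANTCA and for a site of NF-kB, whose letters are those in capitals in the Cxcl2 sequence with any base allowed at the fifth place. Of the 15 largest rises 13 had a window, and 6 held a match. The 3 with the largest change are Cxcl2, Slfn4 and Mmp3, for which 200 bases are printed, at chr5:90903699-90903898, chr11:83174986-83175185 and chr9:7445622-7445821 (GRCm38.p6, plus strand). For Sprr1b (chr3:92438854-92438920, minus strand), Il1rn (chr2:24336689-24336755, plus strand) and Sprr1a (chr3:92485961-92486057, minus strand), 30 bases on either side of the matches are printed. All read 5' to 3' on the strand of the gene, and capitals mark the motif.
Cxcl2: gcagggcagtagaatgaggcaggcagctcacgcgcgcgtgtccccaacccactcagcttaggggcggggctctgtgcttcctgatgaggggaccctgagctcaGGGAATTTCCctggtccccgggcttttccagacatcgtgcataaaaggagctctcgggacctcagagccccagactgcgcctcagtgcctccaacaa
Slfn4: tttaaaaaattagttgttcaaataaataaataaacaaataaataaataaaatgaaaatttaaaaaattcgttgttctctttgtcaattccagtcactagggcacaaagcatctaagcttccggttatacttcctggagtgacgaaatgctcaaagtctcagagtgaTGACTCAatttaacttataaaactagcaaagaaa
Mmp3: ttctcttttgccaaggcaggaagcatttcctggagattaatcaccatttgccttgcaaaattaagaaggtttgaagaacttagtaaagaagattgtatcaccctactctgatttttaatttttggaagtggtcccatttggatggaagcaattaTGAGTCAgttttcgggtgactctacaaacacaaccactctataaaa
Sprr1b: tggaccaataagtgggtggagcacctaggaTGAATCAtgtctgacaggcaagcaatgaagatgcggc
Il1rn: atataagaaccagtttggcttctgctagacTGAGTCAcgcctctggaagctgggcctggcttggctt
Sprr1a: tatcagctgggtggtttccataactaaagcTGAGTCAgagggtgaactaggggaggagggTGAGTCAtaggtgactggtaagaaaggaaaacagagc

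The TGANTCA motif began 34 bases before the start of Slfn4, 46 before Mmp3, 111 before Sprr1b, 141 before Il1rn and, in 2 copies, 146 and 116 before Sprr1a. Its middle base is A in Sprr1b, so that stretch is not the usual AP-1 site, and the shares below count any base there. The NF-kB motif began 97 bases before the start of Cxcl2. Among all 9887 genes tested that had a window, 7.69% held TGANTCA. It was held by 16 of the 54 called rises with a window (29.6%) and by 4 of the 45 called falls (8.89%). The NF-kB motif was held by 0.597% of all genes, by 1 of the 54 rises and by 0 of the 45 falls. A match is a description of these letters and no evidence of binding, and several of the 16 are neighbours from 1 gene family, such as Mmp3, Mmp10 and Mmp12 or Sprr1a, Sprr1b, Sprr2d and Sprr2h. The part of AP-1 factors in the rises was not tested. Of 31 measured AP-1 and immediate early genes 21 had a positive change. Higher without overlap were 4 and lower 0 (8.28% and 6.25% of all genes were). Of the 31 genes 0 passed the test (1.09% of all genes did), with a median change of 0.16. Junb, with the smallest p of these, read 4.08, 3.94 and 4.32 in wildtype and 5.05, 5.21 and 4.92 in knockout arrays (0.95 ± 0.18, adjusted p = 0.0674).

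Keratins and cornified envelope proteins of the wounded epithelium were higher. Of 26 measured genes of this list 8 rose (0.613% of all genes did) and 0 fell, with a median change of 1.06. Genes without overlap numbered 16 higher and 1 lower (8.28% and 6.25% of all genes). Krt16, a keratin of activated stratified epithelium, read 3.79, 4.01 and 4.64 in wildtype and 10.66, 10.93 and 11.09 in knockout arrays. That is a change of 6.75 ± 0.25 (adjusted p = 0.000155), the largest of any gene, and the 3 knockout arrays differed by less than the wildtype arrays did. Sprr1b, a small proline-rich protein cross-linked into the cornified envelope, read 2.17, 2.25 and 2.06 against 7.28, 7.78 and 8.27 (5.62 ± 0.26, adjusted p = 0.000327). Its neighbour Sprr1a read 4.80, 4.39 and 4.49 against 8.82, 9.17 and 9.56 (4.62 ± 0.23, adjusted p = 0.000347). For these 3 genes the knockout arrays lay close to each other and far above every wildtype array. Sprr2d read 2.96, 3.53 and 3.21 against 6.88, 5.73 and 7.03 (3.31 ± 0.36, adjusted p = 0.0097), and Sprr2h, Sprr3, Krt6b and Serpinb2 were the other called rises, named after their values were seen. Sprr genes are close copies of each other, and whether their probe sets read each other's transcripts was not tested. Markers of cornified skin and hair follicle gave 0 calls in 25 genes, with a median change of -0.13 and a median wildtype level of 3.39. Among them 3 were higher and 7 lower without overlap (8.28% and 6.25% of all genes were). The part of skin in the rises was not tested. Calls in the wound list numbered 3 without wildtype replicate 1 or 2, 5 without wildtype replicate 3 and 10, 9 and 6 without knockout replicates 1, 2 and 3. Of the 9 without knockout replicate 2, 8 were rises and 1 was a fall.

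Interleukin-1 and its antagonist rose together. Il1b, the secreted interleukin-1 beta, read 3.20, 3.71 and 3.64 in wildtype and 8.95, 11.29 and 9.73 in knockout arrays (6.47 ± 0.54, adjusted p = 0.00336). Il1rn, the receptor antagonist, read 4.60, 3.75 and 2.81 against 7.90, 9.36 and 8.92 (5.01 ± 0.51, adjusted p = 0.0082). Casp1, the protease that matures interleukin-1 beta, read 3.38, 3.03 and 3.18 against 4.25, 4.42 and 4.54 (1.21 ± 0.17, adjusted p = 0.025). The ligand and the antagonist were highest in knockout replicate 2 and lowest in replicate 1, while Casp1 varied little. These were the 3 of 21 measured genes of the interleukin-1 list that rose (0.613% of all genes did), 0 fell, and the median was 0.89. Higher without overlap were 10 and lower 1 (8.28% and 6.25% of all genes were). The list kept 1 call when wildtype replicate 2 or knockout replicate 3 was left out, 2 without wildtype replicate 1 or 3, and had 6 without knockout replicate 1.

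Chemokines that attract neutrophils and monocytes rose, 7 of 41 chemokine and receptor genes in all (0.613% of all genes rose), with 0 falls and a median of 0.76. Genes without overlap numbered 20 higher and 3 lower (8.28% and 6.25% of all genes). Cxcl2, a neutrophil attractant, read 3.27, 2.19 and 2.30 in wildtype and 7.45, 10.51 and 8.81 in knockout arrays (6.34 ± 0.71, adjusted p = 0.0104). Its relative Cxcl5 read 2.78, 2.19 and 2.20 against 6.04, 7.14 and 7.51 (4.51 ± 0.38, adjusted p = 0.00364). Knockout replicate 1 was the lowest of the 3 for both. Ccl6 read 6.06, 5.49 and 6.26 against 8.32, 9.69 and 9.33, and Ccl9 read 6.52, 5.64 and 6.29 against 8.28, 9.89 and 8.85. Their changes were 3.18 ± 0.37 and 2.85 ± 0.42 (adjusted p = 0.0118 and 0.0294). The remaining called members, named after their values were seen, were Ccl3, Ccl4 and Ccrl2, each highest in knockout replicate 2. Calls in this list fell to 1 without wildtype replicate 1 or 2 or knockout replicate 3 and to 3 without wildtype replicate 3, and there were 14 without knockout replicate 1.

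**Figure D2:**
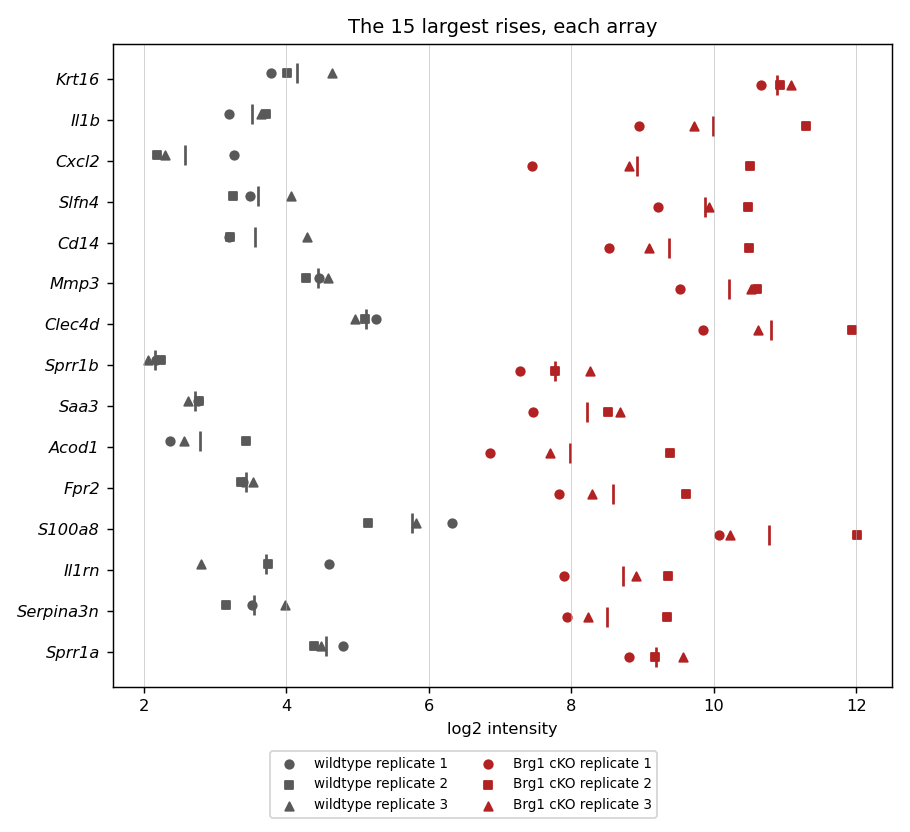
Log2 intensity of the 15 largest called rises in each of the 3 wildtype (grey) and 3 Brg1 cKO arrays (red), with the symbol giving the replicate and the vertical bar the group mean. Krt16 is tightest, between 10.66 and 11.09 in the knockout, while Cxcl2 spreads from 7.45 in knockout replicate 1 to 10.51 in replicate 2.

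Genes of neutrophils and of innate sensing rose as well. Of 28 measured neutrophil genes 7 rose (0.613% of all genes did) and 0 fell, with a median of 1.01. Higher without overlap were 14 and lower 0 (8.28% and 6.25% of all genes were). Clec4d, a C-type lectin receptor of myeloid cells, read 5.26, 5.11 and 4.97 in wildtype and 9.85, 11.94 and 10.62 in knockout arrays (5.69 ± 0.48, adjusted p = 0.00336). Fpr2, a formyl peptide receptor, read 3.39, 3.37 and 3.54 against 7.84, 9.62 and 8.29 (5.15 ± 0.42, adjusted p = 0.00336), and Clec4e read 2.01, 2.27 and 2.4 against 5.94, 7.55 and 6.45 (4.41 ± 0.39, adjusted p = 0.00416). S100a8 and S100a9 form calprotectin, an abundant neutrophil protein that inflamed keratinocytes also make. S100a9 read 7.78, 7.14 and 7.84 against 11.50, 13.01 and 11.68 (4.48 ± 0.41, adjusted p = 0.00502), and S100a8 read 6.33, 5.14 and 5.83 against 10.08, 12.01 and 10.23 (5.01 ± 0.54, adjusted p = 0.0097). Every one of these 5 was highest in knockout replicate 2. The primary granule genes Mpo and Elane did not pass the test and overlapped between the groups: Mpo, myeloperoxidase, read 2.19, 2.0 and 2.4 against 1.88, 2.33 and 2.36, and Elane, neutrophil elastase, read 2.24, 2.11 and 2.57 against 2.43, 2.37 and 2.05. The mean level of the 28 genes was 3.74 to 3.91 in wildtype arrays and 5.05, 6.52 and 5.24 in knockout replicates 1 to 3. Without 1 array the list kept 5 to 11 calls, the fewest without wildtype replicate 2 and the most without knockout replicate 2. In whole eyes, more (or fewer) cells of a type and more (or less) RNA per cell cannot be told apart, which holds for every rise and fall described here.

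Innate receptors and acute phase proteins made up the list with most calls, 9 of 36 higher (0.613% of all genes were) and 0 lower, with a median of 1.33. Higher without overlap were 23 and lower 0 (8.28% and 6.25% of all genes were). Slfn4, a Schlafen family gene of myeloid cells, read 3.49, 3.25 and 4.07 in wildtype and 9.22, 10.48 and 9.93 in knockout arrays (6.28 ± 0.35, adjusted p = 0.00041). Cd14, the co-receptor for bacterial lipopolysaccharide, read 3.20, 3.21 and 4.29 against 8.53, 10.49 and 9.09 (5.80 ± 0.52, adjusted p = 0.00481). Saa3, an acute phase serum amyloid protein, read 2.76, 2.78 and 2.62 against 7.47, 8.52 and 8.69 (5.51 ± 0.32, adjusted p = 0.00043), and Acod1, the enzyme that makes itaconate in activated macrophages, read 2.36, 3.43 and 2.56 against 6.87, 9.39 and 7.70 (5.20 ± 0.61, adjusted p = 0.0118). The groups did not overlap for these 4, as was so for every called gene. Serpina3n, an acute phase protease inhibitor outside the lists, read 3.51, 3.15 and 3.98 against 7.94, 9.34 and 8.24 (4.96 ± 0.39, adjusted p = 0.00305). Calls in the innate list fell to 3 without any 1 of the wildtype arrays or without knockout replicate 3, and rose to 12 and 15 without knockout replicates 1 and 2.

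Other leukocyte lists moved less. Of 26 resident macrophage genes 0 passed the test, although 20 had a positive change, 10 were higher without overlap (8.28% of all genes were) and 1 lower. The median was 0.37. Ctss, the lysosomal cathepsin S with the smallest p of that list, read 7.67, 8.51 and 8.67 in wildtype and 9.39, 10.32 and 9.86 in knockout arrays (1.57 ± 0.33, adjusted p = 0.104). Of 14 genes for class II antigen presentation 1 rose (0.613% of all genes did), and 5 were higher and 1 lower without overlap. The rise was that of Itgax, an integrin of dendritic cells (1.70 ± 0.28, adjusted p = 0.0427), a call that held in 1 of the 6 fits without 1 array, that without knockout replicate 2. Lymphocyte genes gave 0 calls in 19, with a median of -0.01. Among them Ptprc, the general leukocyte marker CD45, read 3.98, 3.57 and 4.59 against 5.61, 7.29 and 6.55 (2.44 ± 0.44, adjusted p = 0.0629). Mast cell genes gave 0 calls in 10. Without knockout replicate 1 the macrophage list and the lymphocyte list each had 1 call, a rise.

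Interferon response genes were higher as a list, and few of them passed the test one by one. All 28 measured genes had a positive change, with a median of 1.71, against 52.8% positive among all genes, 18 were higher without overlap (8.28% of all genes were), and 3 rose at the adjusted threshold (0.613% of all genes did). Mx1, an antiviral GTPase, read 3.85, 3.86 and 4.33 in wildtype and 7.15, 8.14 and 7.49 in knockout arrays (3.58 ± 0.28, adjusted p = 0.00305). Oasl1, of the oligoadenylate synthetase family, read 3.0, 2.89 and 4.03 against 5.55, 7.95 and 6.71 (3.43 ± 0.59, adjusted p = 0.0493), and Oas2 read 4.25, 3.95 and 4.32 against 5.17, 5.23 and 5.61 (1.16 ± 0.20, adjusted p = 0.0454). The list set the knockout arrays apart from each other: its median deviation from the wildtype mean was 0.69 in replicate 1, 3.23 in replicate 2 and 1.40 in replicate 3, and replicate 2 was the highest for 26 of the 28 genes. Without replicate 1 the median was 2.31 with 4 calls, and without replicate 2 it was 1.0 with 5 calls. Without wildtype replicate 1 or 2 or knockout replicate 3 it kept 1 call.

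Enzymes that break down extracellular matrix rose, 4 of 26 metalloproteinase and inhibitor genes (0.613% of all genes rose), with 0 falls and a median of 0.50. Genes without overlap numbered 9 higher and 0 lower (8.28% and 6.25% of all genes). Mmp3, stromelysin-1, read 4.46, 4.28 and 4.59 in wildtype and 9.53, 10.60 and 10.52 in knockout arrays (5.77 ± 0.30, adjusted p = 0.000347). Mmp12, macrophage elastase, read 2.03, 2.01 and 2.03 against 5.28, 6.80 and 5.35 (3.79 ± 0.39, adjusted p = 0.0082), Mmp10 read 2.79, 3.56 and 2.77 against 5.46, 7.45 and 6.84 (3.54 ± 0.49, adjusted p = 0.0236), and Adam8 read 5.48, 4.98 and 5.10 against 7.25, 8.54 and 7.29 (2.51 ± 0.36, adjusted p = 0.025). The collagens and proteoglycans of the corneal stroma gave 0 calls in 31 genes, with a median of 0.14. Calls among the metalloproteinases ranged from 1 without wildtype replicate 1 or 2, through 2 without wildtype replicate 3 or knockout replicate 3, to 6 without knockout replicate 1.

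Both called genes of the epidermal growth factor family were ligands of epithelial repair. Ereg, epiregulin, read 3.23, 3.73 and 3.83 in wildtype and 5.82, 7.30 and 6.79 in knockout arrays (3.04 ± 0.37, adjusted p = 0.0145), and Epgn, epigen, read 3.87, 3.92 and 3.81 against 5.30, 6.2 and 6.18 (2.03 ± 0.26, adjusted p = 0.018). They were the 2 called among 32 genes of the EGF family and of FGF and ERK feedback (0.613% of all genes rose), a list with a median of -0.11. Higher without overlap were 5 and lower 4 of the 32 genes (8.28% and 6.25% of all genes were). Neither ligand was called without 1 of the wildtype arrays or without knockout replicate 3. Without knockout replicate 2 the list had 2 rises and 2 falls. Among 27 genes of hypoxia, glycolysis and oxidative stress 1 rose (0.613% of all genes did) and 0 fell, with a median of 0.28. Of the 27 genes 10 were higher and 0 lower without overlap. The rise was that of Pfkfb3, a driver of glycolysis (6.59, 6.79 and 6.74 against 8.53, 7.84 and 8.18, a change of 1.48 ± 0.21, adjusted p = 0.025). It was called without knockout replicate 1 or 2 but not without any of the other 4 arrays. Slc16a3, a lactate exporter, was the other rise besides S100a9 with a mean above 7.38 in both groups (7.65, 7.96 and 8.32 against 9.51, 9.73 and 9.31, a change of 1.54 ± 0.22, adjusted p = 0.025).

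Genes of the corneal surface epithelium fell. Of 24 measured corneal identity genes 3 fell (0.476% of all genes did) and 0 rose. The median was -0.45, with changes from -3.70 to 1.42. Lower without overlap were 10 and higher 1 (6.25% and 8.28% of all genes were). Krt12, the keratin of differentiated corneal epithelium, read 9.29, 9.50 and 9.26 in wildtype and 5.33, 5.84 and 5.79 in knockout arrays, 7.71% of the wildtype intensity (-3.70 ± 0.20, adjusted p = 0.000347), and its second probe set changed by -4.10 ± 0.29. Ehf, an Ets factor of surface epithelia, read 9.58, 8.90 and 8.66 against 4.94, 5.37 and 5.96 (-3.62 ± 0.33, adjusted p = 0.00492). Gpha2, a hormone subunit found in limbal stem cells, read 6.31, 6.32 and 6.21 against 5.07, 5.03 and 4.75 (-1.33 ± 0.16, adjusted p = 0.0149). Not all epithelial keratins went this way. Krt15, of basal and limbal cells, read 11.47, 11.58 and 11.35 against 7.20, 9.70 and 8.49 but missed the threshold (-3.01 ± 0.55, adjusted p = 0.0644). Krt5 read 9.96, 10.41 and 9.69 against 9.44, 10.04 and 9.98, and its basal partner Krt14 read 9.46, 9.34 and 8.95 against 9.66, 10.40 and 10.64 (0.98 ± 0.29, adjusted p = 0.261), so one overlapped and the other was higher in all 3 knockout arrays. Krt5 and Krt14 were named after their values were seen. The corneal list kept 2 calls without any 1 wildtype array and 3 without knockout replicate 3, and had 4 and 6 without knockout replicates 1 and 2.

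Regulators and junctions of surface epithelia shared the fall. Elf5, another epithelial Ets factor, read 6.17, 5.57 and 5.0 in wildtype and 2.54, 3.49 and 3.08 in knockout arrays (-2.54 ± 0.35, adjusted p = 0.0226). With Ehf it made 2 falls (0.476% of all genes fell) and 0 rises among 23 surface epithelium factors, a list with a median of -0.44. Of these factors 8 were lower and 0 higher without overlap (6.25% and 8.28% of all genes were). Ehf was called in all 6 fits without 1 array and Elf5 in 3 of them, and the list had 1 call without wildtype replicate 1 or 2 and 2 in each of the other 4 fits. Of 27 genes of epithelial junctions and desmosomes 3 fell (0.476% of all genes did) and 0 rose, 25 had a negative change, and the median was -0.53. Lower without overlap were 11 and higher 0 (6.25% and 8.28% of all genes were). All 3 falls were claudins, the sealing proteins of tight junctions. Cldn8 read 7.31, 6.75 and 5.64 against 1.84, 2.41 and 2.47 (-4.33 ± 0.42, adjusted p = 0.0058), Cldn10 read 6.68, 6.54 and 6.68 against 5.03, 5.49 and 4.79 (-1.53 ± 0.21, adjusted p = 0.0233), and Cldn3 read 6.80, 6.38 and 6.10 against 4.86, 5.15 and 4.53 (-1.58 ± 0.25, adjusted p = 0.034). With 1 array left out, the junction list had 5 calls when that array was knockout replicate 2, 0 when it was wildtype replicate 2 and 1 in each of the other 4 fits.

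The largest fall of any gene was that of Wfdc18, a secreted protein with a whey acidic protein domain, which read 11.23, 10.17 and 10.44 in wildtype and 3.95, 6.64 and 6.14 in knockout arrays (-5.04 ± 0.67, adjusted p = 0.0192). Ceacam10, a cell adhesion protein, read 8.78, 8.12 and 7.94 against 3.74, 5.46 and 2.81 (-4.27 ± 0.62, adjusted p = 0.0258). Myo7b, an unconventional myosin of microvilli, had knockout arrays close to each other (6.58, 6.79 and 6.92 against 3.56, 3.73 and 3.47) and a change of -3.18 ± 0.17 (adjusted p = 0.000347). Smaller falls were those of the calmodulin-like epithelial protein Calml3 (-2.90 ± 0.47), the phosphate transporter Slc34a2 (-2.62 ± 0.24) and Cnmd, chondromodulin, an inhibitor of vessel growth (-2.60 ± 0.30), with adjusted p = 0.0408, 0.00511 and 0.0104. Adh1, an alcohol dehydrogenase (-2.79 ± 0.38), Cbr2, a carbonyl reductase (-2.74 ± 0.44), and Tfcp2l1, a grainyhead-like transcription factor (-2.74 ± 0.41), followed with adjusted p = 0.0226, 0.0389 and 0.0306. In these 6 genes, as in every called fall, no knockout array reached the wildtype range.

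**Figure D3:**
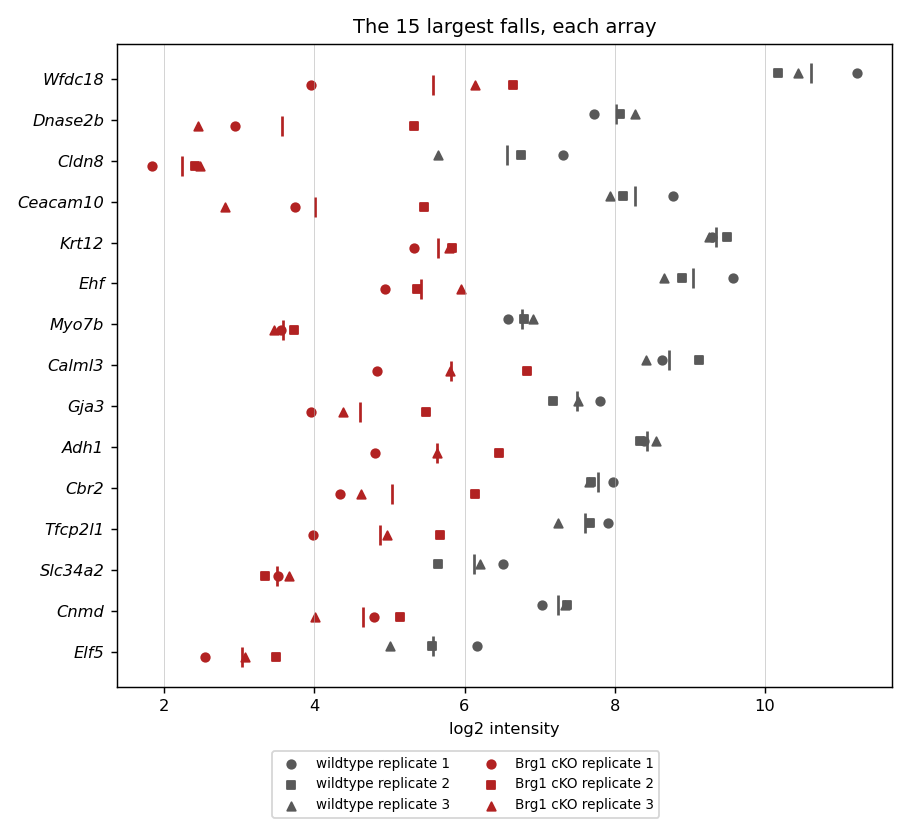
Log2 intensity of the 15 largest called falls in each of the 3 wildtype (grey) and 3 Brg1 cKO arrays (red), with the symbol giving the replicate and the vertical bar the group mean. The knockout arrays of Krt12 (5.33 to 5.84) and Myo7b (3.47 to 3.73) sit together, while those of Dnase2b run from 2.45 in replicate 3 to 5.33 in replicate 2.

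Lens fibre genes fell in part. Of 16 measured genes of the fibre membrane and cytoskeleton 4 fell (0.476% of all genes did) and 0 rose, with a median of -0.28. Lower without overlap were 8 and higher 1 (6.25% and 8.28% of all genes were). Mip, aquaporin 0, the water channel of fibre membranes, read 11.41, 11.86 and 11.54 in wildtype and 8.99, 10.23 and 8.76 in knockout arrays (-2.28 ± 0.38, adjusted p = 0.0427). Gja3, the fibre connexin Cx46, read 7.81, 7.17 and 7.52 against 3.95, 5.49 and 4.38 (-2.89 ± 0.39, adjusted p = 0.0211). A pair of RNA-binding proteins of fibre cells also fell, Caprin2 (-2.17 ± 0.24) and Tdrd7 (-2.03 ± 0.34, adjusted p = 0.0104 and 0.0467). For all 4, knockout replicate 2 was nearest the wildtype arrays. Bfsp1, the beaded filament protein filensin, named after its values were seen, spread too widely to pass: 10.97, 11.02 and 11.04 against 6.55, 8.58 and 4.86 (-4.35 ± 0.80, adjusted p = 0.0644). This list had 0 calls when wildtype replicate 1 or 2 was left out, 1 without wildtype replicate 3 or knockout replicate 3, 2 without knockout replicate 1 and 5 without knockout replicate 2.

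Among 20 genes of fibre denucleation and organelle loss 2 fell (0.476% of all genes did) and 0 rose, and the median was 0.01. Lower without overlap were 5 and higher 2 (6.25% and 8.28% of all genes were). Dnase2b, the acid nuclease that digests fibre cell nuclei, read 7.72, 8.07 and 8.27 in wildtype and 2.94, 5.33 and 2.45 in knockout arrays (-4.45 ± 0.68, adjusted p = 0.0312). Plaat3, a phospholipase that degrades lens organelles, read 12.03, 11.80 and 12.12 against 9.72, 10.43 and 10.24 (-1.85 ± 0.22, adjusted p = 0.013). Hsf4, a heat shock factor that drives fibre genes, missed the threshold (6.00, 6.80 and 6.54 against 4.28, 4.83 and 3.07, a change of -2.39 ± 0.44, adjusted p = 0.0674) and was named after its values were seen. Of 26 lens transcription factors 1 fell (0.476% of all genes did) and 0 rose, and 5 were lower and 1 higher without overlap. The fall was that of Prox1, a homeodomain factor of fibre elongation, which read 5.87, 6.26 and 5.86 against 4.33, 3.90 and 4.29 (-1.83 ± 0.20, adjusted p = 0.0102). Pax6, the eye field regulator of both lens and cornea, read 11.04, 11.10 and 10.98 against 11.31, 10.23 and 10.87, with overlapping groups. Lens epithelium genes gave 0 calls in 21 (2 falls without knockout replicate 2), and lens capsule genes 0 in 19. Among the fits without 1 array, Dnase2b was called only without knockout replicate 2, Plaat3 only without knockout replicate 1 or 2, and Prox1 in all but those without wildtype replicate 1 or 2.

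Crystallins, the bulk proteins of the lens, were lower in the knockout mean for all 14 measured genes, yet 0 passed the test; adjusted p ran from 0.14 to 0.778, and 13 had an unadjusted p under 0.05, against 9.21% of all genes. The SD of the knockout arrays exceeded that of the wildtype arrays for 14 of 14 genes, with a range of 0.51 to 2.17 against 0.06 to 0.75. Median crystallin intensity was 19.2% of the wildtype mean in knockout replicate 1, 64.1% in replicate 2 and 6.00% in replicate 3. Replicate 2 was the highest and replicate 3 the lowest for 13 of the 14 genes. Crygs, gamma-S crystallin, read 12.44, 12.75 and 12.57 in wildtype and 8.32, 11.23 and 7.0 in knockout arrays (-3.74 ± 0.93, adjusted p = 0.167). Cryga read 12.82, 13.15 and 12.96 against 11.28, 12.65 and 8.40 (-2.20 ± 0.93, adjusted p = 0.539), and Cryaa 13.14, 13.21 and 13.07 against 11.62, 12.51 and 11.26 (-1.34 ± 0.31, adjusted p = 0.14). For 13 of the 14 genes all knockout arrays lay below all wildtype arrays, the exception being Crybb2, and 6.25% of all genes were lower without overlap. The median change was -2.31 with all arrays, and -2.44, -3.18 and -1.56 without knockout replicates 1, 2 and 3. Without replicate 2, 10 of the 14 were called lower, and 0 were in any of the other 5 fits without 1 array. Gamma crystallins are close copies of each other, and whether their probe sets read each other's transcripts was not tested.

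**Figure D4:**
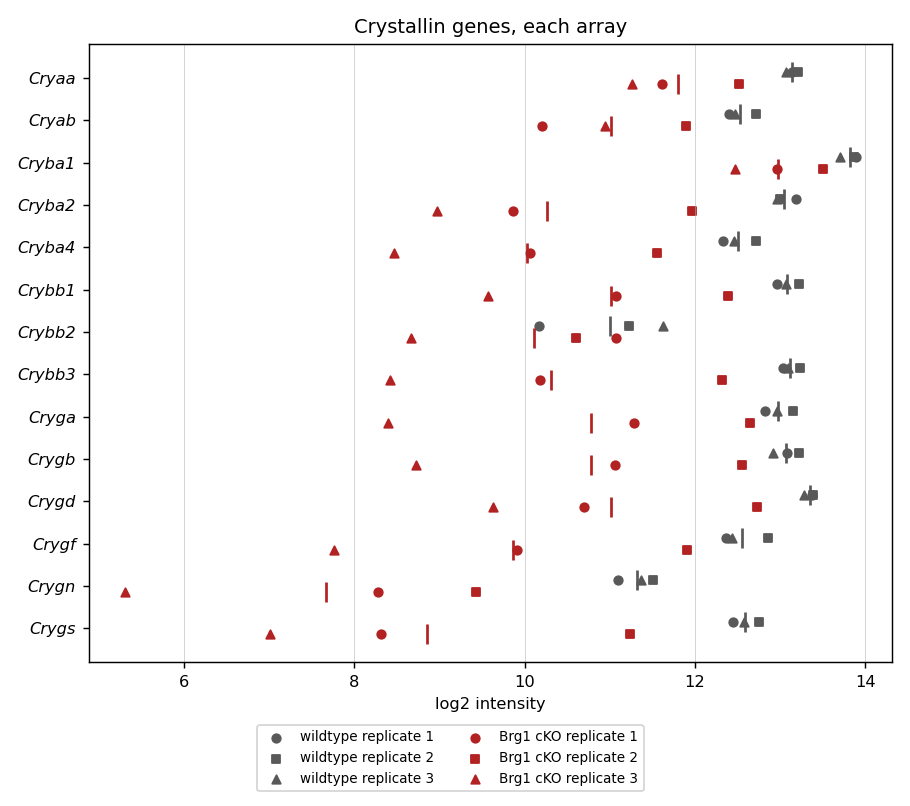
Log2 intensity of the 14 measured crystallin genes in each of the 3 wildtype (grey) and 3 Brg1 cKO arrays (red), with the symbol giving the replicate and the vertical bar the group mean. Knockout replicate 2 is nearest the wildtype arrays and replicate 3 farthest for most genes, with medians of 64.1% and 6.00% of the wildtype mean.

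Of the 10 falls with means above 7.38 in both groups, Mip, Caprin2, Tdrd7 and Plaat3 are described above. Tent5c, a poly(A) polymerase, read 10.75, 10.57 and 10.29 in wildtype and 8.23, 9.03 and 8.25 in knockout arrays (-2.03 ± 0.26, adjusted p = 0.018), and Eppk1, epiplakin, a linker of keratin filaments, read 10.06, 9.19 and 9.76 against 7.09, 7.99 and 8.02 (-1.97 ± 0.33, adjusted p = 0.0427). The others were the glycolytic aldolase Aldoc (-1.30 ± 0.22), the translation factor Eif5b (-1.24 ± 0.17), the mitochondrial protein Mgarp (-1.18 ± 0.20) and the cytoskeletal adaptor Pdlim7 (-0.92 ± 0.15), with adjusted p = 0.0431, 0.0236, 0.046 and 0.0429. The other probe sets of Eif5b changed by -1.79 ± 0.24 and -1.25 ± 0.23, whereas that of Pdlim7 changed by 0.30 ± 0.23. Of 52 other probe sets of called genes, 49 had the same sign as the one used and 3 the opposite sign, those of Npas3, Pdlim7 and Calb1.

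The knockout arrays spread more widely than the wildtype arrays across the genes measured. The median SD per gene was 0.20 in wildtype and 0.28 in knockout arrays, 66.0% of genes had the larger SD in the knockout, and 349 genes had an SD above 1 there against 108 in wildtype. Pairwise SDs of the differences across genes were 0.42 to 0.46 between wildtype arrays, 0.72 between knockout replicates 1 and 2, 0.52 between 1 and 3 and 0.61 between 2 and 3. The called rises were smallest in replicate 1 (median 2.23, the smallest of the 3 arrays for 61 of 76 genes) and largest in replicate 2 (median 3.68, the largest for 59 of 76). The called falls ran the other way, with medians of -2.08 in replicate 1, -1.63 in replicate 2 and -1.88 in replicate 3, and replicate 2 showed the smallest fall for 35 of 59. Among genes with a mean above 7.38, clone-named and predicted genes left out, Xist had the widest knockout spread (SD 4.34). Next came Commd9 (SD 2.42), which also varied in wildtype (5.70, 9.23 and 5.99 against 9.19, 9.38 and 5.10), followed by 4 crystallins, Cryga, Crygs, Crygn and Crygf.

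Lists of other eye tissues moved with this order of the knockout arrays. Skeletal muscle genes deviated from the wildtype mean by a median of -0.50 in knockout replicate 1, 1.30 in replicate 2 and 0.41 in replicate 3, and by -0.33, -0.30 and 0.64 in wildtype replicates 1 to 3. Replicate 2 was the highest knockout array for 27 of the 29 muscle genes, 0 of which passed the test, and the median change turned from 0.33 to -0.07 without it. Mean muscle levels spanned 8.36 to 9.39 in wildtype and 8.18 to 9.92 in knockout arrays, so the groups overlapped. Endothelial genes had 25 of 27 positive changes, 0 calls, a median of 0.53 and deviations of 0.15, 1.12 and 0.43 in replicates 1 to 3. Selp, the adhesion molecule P-selectin, read 3.88, 3.77 and 3.49 in wildtype and 4.40, 7.91 and 6.51 in knockout arrays (2.56 ± 0.77, adjusted p = 0.284). The other Selp probe set did not rise, with a change of -0.17 ± 0.41. Photoreceptor genes ran the opposite way: replicate 1 was highest for 34 of 36 and replicate 2 lowest for 28, with deviations of 0.70, -0.22 and 0.10 and 0 calls. Without knockout replicate 1, 1 muscle and 1 endothelial gene were called, both rises. The genes higher without overlap then numbered 12 of 29 and 14 of 27, against 0 and 4 with all arrays, while those among all 12393 genes went from 1026 to 1635. The part of these tissues in the array differences of the inflammatory lists and the crystallins was not tested.

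**Figure D5:**
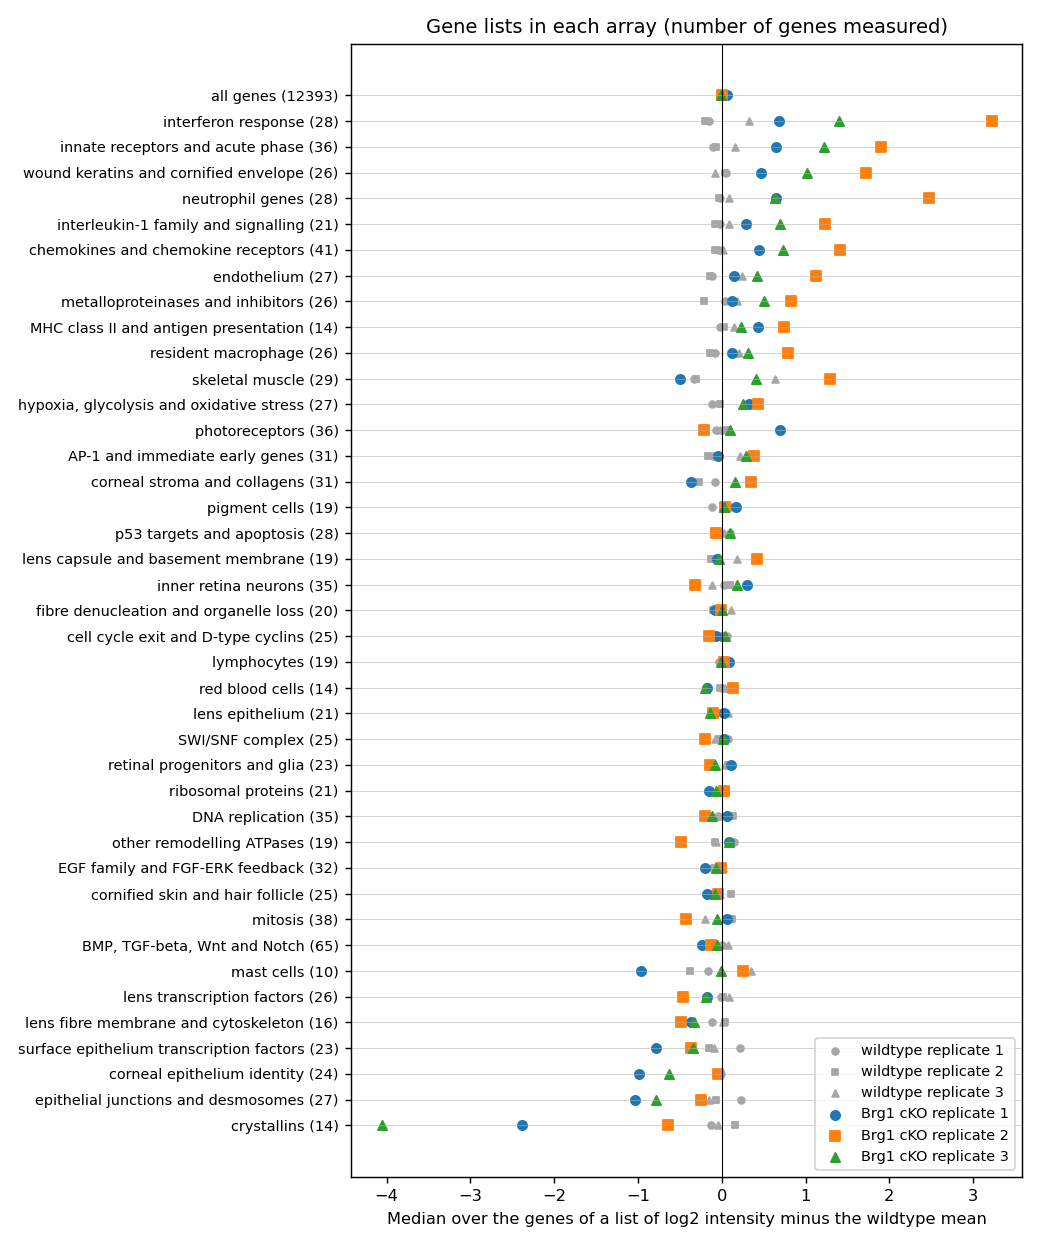
Median deviation from the wildtype mean (log2 intensity, horizontal) of the genes of each of 41 lists (40 shown, without the sex-linked genes) in every array, with wildtype arrays in grey and the 3 Brg1 cKO arrays in colour and the number of measured genes in brackets. Interferon genes reach 3.23 in knockout replicate 2 and crystallins -4.06 in replicate 3, while all genes together stay between -0.02 and 0.06.

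Other programmes gave few or no calls. With 1.09% of all genes called, 0 calls in a list this short do not show that it was unchanged. DNA replication genes had 0 in 35, with a median of -0.08, mitosis genes 0 in 38, with a median of -0.13 and 33 of 38 negative, and genes of cell cycle exit 0 in 25. Without knockout replicate 2, 19 mitosis genes had a negative and 19 a positive change. Genes of p53 and apoptosis gave 0 in 28, genes of BMP, TGF-beta, Wnt and Notch signalling 0 in 65, pigment cells 0 in 19, retinal progenitors and glia 0 in 23, red blood cells 0 in 14 and ribosomal proteins 0 in 21. The p53 list had 1 rise without knockout replicate 1 or 2, and the signalling list 1 fall without knockout replicate 2. In the signalling list 41 of 65 genes had a negative change, down to -2.03. It had 10 genes lower and 2 higher without overlap (6.25% and 8.28% of all genes were). Of 35 inner retina neuron genes 1 rose (0.613% of all genes did), the calcium-binding protein Calb1 (4.96, 5.51 and 4.96 in wildtype and 7.36, 6.49 and 7.02 in knockout arrays, 1.81 ± 0.27, adjusted p = 0.0303). Its other probe set changed by -0.14 ± 0.22, and the call held only without knockout replicate 2 among the fits without 1 array. In all, 17 of the 41 lists held a call, 11 of them only rises and 6 only falls, and they covered 46 of the 76 called rises but 14 of the 59 called falls.

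The Brg1 effect was compared with the Snf2h effect by a test of their difference over all 14 arrays, with no control arrays shared. This difference was called for 115 of 12393 genes (0.928%), higher for 101 (0.815%) and lower for 14 (0.113%). Of the 76 rises in the Brg1 experiment 60 were among them, and of the 59 falls 8. Krt16, Il1b and Mmp3, which rose in the Brg1 knockout, changed by -0.13, -0.01 and -0.62 in the Snf2h knockout. Krt12 changed by 0.43 there, Gja3 by 0.14 and Krt15 by 0.17, and all 3 differences were called. For several falls the difference did not pass although they were called in the Brg1 experiment: Dnase2b changed by -1.53 in the Snf2h knockout (difference -2.92 ± 0.79, adjusted p = 0.139), Mip by -1.29 (-0.99 ± 0.73, adjusted p = 0.621) and Wfdc18 by -1.63 (-3.41 ± 3.10, adjusted p = 0.695). Plaat3 changed by 0.06 and Cnmd by -0.17 in the Snf2h knockout, and their differences did not pass either. These were -1.91 ± 0.62 and -2.43 ± 1.08 (adjusted p = 0.224 and 0.394). A difference that did not pass thus does not show that a fall was shared. The experiments also differ in background strain, and the strain and the knockout cannot be told apart in this comparison. Lower differences numbered 5 without wildtype replicate 3 of the Brg1 experiment and 30 without knockout replicate 2, and higher ones 62 without wildtype replicate 1.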

How the data were processed

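RNA of 14 whole-eye samples was measured on single-colour Affymetrix arrays, of which the 6 of the Brg1 experiment are described here. Per the submitters' processing notes, RMA made the deposited values, which are linear intensity per probe set. The RMA version is not given in the sources used here. Nor is it stated whether the experiments shared 1 RMA run. No detection calls were used, and background compresses fold changes of dim probe sets. Precision is limited by the 3 arrays in each group.

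The log2 of the intensity was taken without further scaling. Of 22690 probe sets, 64 were controls, 20380 had 1 gene in the array annotation, 691 several and 1555 none. Where a gene had several single-gene probe sets (4956 of 12393 genes), the one brightest on average across the 14 arrays was used. Of the genes, 12369 matched the RefSeq gene table, which changed 0 symbols. Knockout and wildtype arrays were compared by limma's lmFit and eBayes (limma 3.58.1, R 4.3.3), two-sided, with Benjamini-Hochberg adjustment over all genes, and calls are at an adjusted p under 0.05. Errors of changes are moderated standard errors. The difference from the Snf2h experiment was an interaction contrast over 14 arrays. An exact permutation test of 3 against 3 arrays cannot give a p below 0.1 and was not used. Gene lists were described by counts and medians with no test. Calls higher and lower made up 0.613% and 0.476% of all genes, so 0 calls in a short list do not show that it was unchanged. Promoter sequences are from RefSeq (GRCm38.p6), with windows of 300 bases. Same-numbered knockout and wildtype arrays had correlations of deviations of 0.09, -0.01 and 0.06, so the numbers were not taken to pair samples.

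The members, the gene lists, the motifs and the tests were chosen with earlier results of these data known. Genes named were Smarca4, the 15 largest rises and falls among calls without overlap, the 10 largest in each direction among calls at or above the median level in both groups, up to 4 called members of each list (or the member with the smallest p where none was called), the 6 genes at or above the median level with the widest knockout spread, and the 6 genes per direction with the largest called interaction. Genes named outside this rule are said to be so, apart from the tissue markers, the other crystallins, genes listed beside a count, and the neutrophil granule genes. On simulated data with 12393 genes and 50 changed at each size, the Brg1 test recovered 32%, 66% and 96% of genes raised by a log2 of 1, 2 and 4 and 80% of those lowered by 2, and called 8 unchanged genes. For the interaction these were 28%, 82%, 98% and 82%, with 9. Alternatives were quantile normalisation, a filter at the median level, an offset of 32, other choices of probe set, trended robust eBayes, array weights, a replicate block, 1 fit over 14 arrays, a fold threshold, a stricter adjusted p and leaving out each array.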

Additional observations from a re-analysis of the deposited data

Results flagged for a closer look

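The results flagged here are differences between the effects of the Brg1 and the Snf2h knockout, each tested as the interaction of knockout and experiment over 14 arrays with limma. The difference passed an adjusted p of 0.05 for 101 genes that were higher and 14 that were lower in the Brg1 experiment. On the higher side the 6 largest were Cxcl2 (difference 6.91 ± 0.77, adjusted p = 0.000305), Krt16 (6.88 ± 0.60, adjusted p = 3.39e-05), Slfn4 (6.60 ± 0.56, adjusted p = 2.77e-05), Il1b (6.49 ± 0.58, adjusted p = 4.05e-05), Clec4d (6.41 ± 0.55, adjusted p = 2.77e-05) and Mmp3 (6.39 ± 0.40, adjusted p = 3.02e-06). In the Snf2h knockout these 6 changed by between -0.72 (Clec4d) and -0.01 (Il1b). On the lower side the 6 largest were Krt12 (-4.12 ± 0.41, adjusted p = 0.000111), Krt15 (-3.18 ± 0.68, adjusted p = 0.0438), Gja3 (-3.04 ± 0.59, adjusted p = 0.0233), Ceacam10 (-3.02 ± 0.64, adjusted p = 0.0415), Calml3 (-2.85 ± 0.54, adjusted p = 0.0203) and Slc34a2 (-2.55 ± 0.34, adjusted p = 0.00151). Ceacam10 changed by -1.25 in the Snf2h knockout as well. Krt15 was not called in the Brg1 experiment alone (adjusted p = 0.0644). Of the 115 calls, 47 lay outside the calls of the Brg1 experiment, 41 higher and 6 lower. The experiments also differed in background strain, so the strain and the knockout cannot be told apart here.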

How the results depend on the processing

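The 76 rises and 59 falls of the Brg1 experiment were recomputed under each alternative, and the direction of the 135 called genes changed for 0 of them in the fits that tested them. Both quantile normalisations, other probe sets of a gene and trended robust eBayes kept the counts within 1.5 times. Rises and falls numbered 12 and 7 with only the 6197 genes at or above the median level, 7 and 7 with an offset of 32 on the intensity, 166 and 94 in 1 fit over all 14 arrays, 24 and 5 against a log2 change of 1, and 26 and 8 at an adjusted p under 0.01. Falls numbered 95 with array weights. With the replicate number as a block there were 33 rises and 16 falls, although the numbers were not taken to pair samples. Leaving out 1 array gave 18 to 120 rises and 8 to 117 falls. Calls in the difference from the Snf2h experiment (101 higher, 14 lower) numbered 3 and 1 with the filter, 43 and 7 with the offset, and on the lower side 48 with array weights, 8 with the replicate block and 8 with Snf2h cKO replicates 1 and 2 averaged; leaving out 1 array gave 62 to 147 higher and 5 to 30 lower. The change of Smarca4 (0.05) ranged from -0.14 (without Brg1 cKO replicate 1) to 0.21 when 1 array was left out and was -0.35 as the mean of its probe sets, that of Tfrc (0.43) was -0.10 as the mean of its probe sets, and that of Commd9 (0.92) was -0.035 with array weights. None of these 3 genes was called. The causes were not tested. The wildtype mean lay below the median level of all genes for 74 of the 76 rises and 36 of the 59 falls.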

Other observations

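Of the called genes 30 rises and 45 falls lay in none of the lists, and the genes in this section were named after their values were seen. Among the rises were Dmkn, dermokine, a secreted protein of differentiating keratinocytes (3.49, adjusted p = 0.000747), and the epithelial genes Crct1 (2.08), Klk10 (1.31) and Cst6 (1.13). Cytokine-related genes among them were Il24, a cytokine of the interleukin-10 family (1.86, adjusted p = 0.00336), Il7r (3.28) and Osmr, the oncostatin M receptor (2.19). Leukocyte genes included Cd52 (3.30), Mpeg1, a pore-forming protein of macrophages (2.43), Ms4a6d (2.44), Pirb (2.04), Lgals3, galectin-3 (2.51), and Mefv, which encodes pyrin (2.99). Prg4, the lubricant lubricin of joints and the ocular surface, rose by 4.16 (adjusted p = 0.0104). Dmkn and Il24 were called in every one of the 6 fits without 1 array.

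The falls outside the lists held several enzymes of small-molecule metabolism: Adh1 (-2.79) and Adh7 (-1.93), alcohol dehydrogenases, Cbr2 (-2.74), Hsd17b2, a steroid dehydrogenase (-2.43), Ces1d, a carboxylesterase (-1.59), Aox4, an aldehyde oxidase (-0.97), and Gsta2, a glutathione transferase (-1.03). Secretory and surface epithelium genes among them were Agr2 (-2.01), Sftpd, a surfactant protein (-1.59), Upk3b, a uroplakin (-2.51), Scel, sciellin of the cornified envelope (-1.58), and Mal2 (-1.80). Celsr1, a planar polarity cadherin, fell by 1.79 ± 0.17 and was called in all 6 fits without 1 array. The transcription factor Gata6 changed by -1.33 (adjusted p = 0.0317).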
